A study of Rattus norvegicus with 458 samples.

Results

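A group of 9 mature miRNAs from 1 stretch of the rat X chromosome was followed through a body atlas of small RNA sequencing: miR-743b-3p, miR-881-3p, miR-871-3p, miR-741-3p, miR-743a-3p, miR-463-3p, miR-883-3p, miR-471-3p and miR-880-3p. They were taken by name from a table of 7534 miRNA names, each had 1 entry of its own, and none was part of a composite name. A composite name stands for reads that fit more than 1 precursor.

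The tissues came from 10 untreated Sprague Dawley rats of 12 to 13 weeks, 5 males (rats 2 to 6) and 5 females (rats 7 to 11), with no transgene and no treatment in any group. Testicle was sequenced in the 5 males, Ovary and Uterus in the 5 females, and 19 further tissue labels in all 10 rats, while the dorsal root ganglion (DRG) was represented by 10 technical libraries from 2 pools of RNA, 1 per sex. That makes 215 libraries under 23 tissue labels, each a whole-tissue sample in which germ cells and supporting cells were not separated. The question is where in the body these miRNAs were detected, and how far the testis stood above every other tissue.

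MicroRNAs are short RNAs cut from hairpin precursors, and each hairpin can give a product from its 5′ arm (5p) and from its 3′ arm (3p). Bases 2 to 8 of the product, the seed, pair with target messenger RNAs. In the testis, germ cells divide, pass through meiosis and are remodelled into sperm, while Sertoli cells nurse them and Leydig cells make androgen. During male meiosis most genes of the X chromosome fall silent, and X-linked miRNAs of rodents are known for being made in germ cells in spite of this.

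The sequences are shown because the members lie side by side and resemble each other, yet hardly share a seed. All 9 were found by name in RefSeq (build GRCr8). They are listed in the order of transcription, 5′ to 3′, with the seed in capitals.
miR-871-3p: uGACUGGCaccauacuggauaa
miR-881-3p: uAACUGUGgcauuucugaauag
miR-880-3p: uACUCCAUucauucugaguaga
miR-463-3p: uGAUAGACgccaauuuggguag
miR-741-3p: aAAGAUGCcacgcuauguagau
miR-471-3p: uGAAAGGUgccauacuaugu
miR-883-3p: uAACUGCAacaucucucaguau
miR-743b-3p: gAAAGACAccauacugaauaga
miR-743a-3p: gAAAGACGccaaacuggguaga

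The 9 mature sequences lie within chrX:150444098-150478611 on the minus strand, a stretch of 34514 bases. In RefSeq, 14 genes overlap this stretch, of which 12 are miRNA genes and 0 are protein-coding, and the protein-coding genes on either side are Slitrk2 and Ell2l1. The first in transcription is miR-871-3p at chrX:150478590-150478611, and the last is miR-743a-3p at chrX:150444098-150444119. miR-743b-3p, the most abundant, lies next to it at chrX:150444588-150444609, and miR-881-3p, the second in abundance, at chrX:150474713-150474734, near the other end. The most and the second most abundant member thus came from opposite ends of the stretch.

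The 9 seeds were all different. Over bases 2 to 7 there were 8 different words, because miR-743a-3p and miR-743b-3p share AAAGAC there. Counted from the 5′ end, with the base of miR-743a-3p first, this pair differs by G8A, A12U, G17A and G18A, and no other pair was as similar. A word of 6 bases outside the seeds, CCAUAC, occurred in 3 of the 9 sequences, miR-871-3p, miR-471-3p and miR-743b-3p.

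Libraries that stand apart are named first, since they touch the results. By its correlation with the libraries of every tissue, 10 of 215 libraries resembled another label more than their own by over 0.05 in r. One is the Ovary library of rat 11, which was most like Duodenum (r = 0.909, against 0.751 with Ovary), had no count of the gonadal miR-202-5p and no count of any member, and was left out throughout. Another is the library labelled Hippocampus of rat 7, which was most like Ovary (r = 0.972, against 0.639 with Hippocampus). Its miR-124-3p, the neuronal marker, stood at 2.38 CPM (counts scaled to the library total), against 4054 to 6423 CPM in the Hippocampus libraries that matched their label, while its miR-202-5p stood at 414 CPM against 0 to 0.235 CPM there. Results that rest on it are given with and without it. The others were Hippocampus of rat 2 (most like Uterus) and rat 6 (Duodenum), and Duodenum of rats 2 and 7 (Cerebrum), rat 4 (Hippocampus) and rat 11 (Adrenal). Adrenal and Uterus of rat 8 were most like Jejunum. They stayed under their labels, in the brain group and among its comparison labels, except where all 10 are said to be left out. None of the 5 Testicle libraries stood apart in this way.

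The Testicle libraries carried the markers of their label and were the shallowest of the series, with totals of 376401 to 653651 counts against 946725 to 17725805 in the others, so that 1 count is worth more CPM there than elsewhere. miR-34c-5p, which is abundant in male germ cells, was their most abundant name with a mean of 278169 CPM. miR-202-5p, a marker of the somatic cells of the gonads, lay between 3539 and 5627 CPM. The RNA integrity number was 7.5 to 7.8. The neuronal markers miR-124-3p and miR-9a-5p summed to 144 to 321 CPM. The skeletal muscle list of 3 summed to 228 to 1375 CPM, nearly all of it miR-133a-3p (228 to 1366 CPM). Its other markers were near absent, miR-1-3p at 0 to 6.12 CPM and miR-206-3p at 0 to 3.06 CPM. The smooth muscle markers miR-143-3p and miR-145-5p summed to 108581 to 150039 CPM. The blood list of 3 summed to 87.2 to 1654 CPM. Its upper end is the library of rat 5, with 1530 CPM of miR-486-5p against 30.5 to 58.4 CPM in the other four. The part of these markers in the results was not tested.

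Together the 9 members made up 3.01% ± 0.698 (SD, n = 5) of all miRNA counts in Testicle, between 2.59% and 4.22%. The library of rat 3 stood highest with a summed level of 42197 CPM, and rats 2, 4, 5 and 6 had 26008, 29959, 26391 and 25884 CPM. In rat 3 all 9 members had their highest level of the 5 libraries, by a median factor of 1.52 over the mean of the others, and it was also the library with the smallest total. In whole tissue, more cells that make these miRNAs cannot be told apart from more miRNA per cell.

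miR-743b-3p, the most abundant member, had 8845, 15149, 10795, 9199 and 9135 CPM in rats 2 to 6, with a mean of 10625 ± 2642 CPM (SD, n = 5). miR-881-3p followed with 7554, 13472, 9474, 7867 and 7855 CPM and a mean of 9245 ± 2481. Among the 1863 names with a count in Testicle these were the 15th and the 17th. Their order was the same in every library, with miR-743b-3p above miR-881-3p by 0.21 ± 0.026 on the log2 scale, a small and very even step.

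miR-871-3p stood at 3673, 4984, 2688, 3640.5 and 2689 CPM, with a mean of 3535 ± 944. miR-741-3p stood at 2889.5, 4044, 3176, 2764 and 2886 CPM, with a mean of 3152 ± 521. The order of this pair changed between rats, with miR-871-3p higher in 3 of 5 libraries, so their means do not differ beyond the spread. miR-743a-3p came next with 1569, 2159.9, 1926, 1401 and 1822 CPM and a mean of 1776 ± 298, far below its near twin miR-743b-3p and 1.78 times below miR-741-3p.

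The remaining 4 were lower by a clear step, 3.24 times from miR-743a-3p to the next. miR-463-3p had the most even level, with 516, 619, 563, 514 and 526 CPM (mean 548 ± 44.6). miR-883-3p had 356, 579, 462, 365 and 406 CPM (mean 434 ± 91.5), and miR-471-3p had 368, 579, 393, 396 and 371 CPM (mean 422 ± 89.0). miR-880-3p was the least abundant and the least even, with 237, 611, 482, 245 and 193 CPM (mean 353 ± 183): rats 3 and 4 were high and rats 2, 5 and 6 low, without overlap.

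Of the 8 neighbouring pairs in this order, 5 had the same order in all 5 libraries. In an exact sign-flip permutation test (two-sided) each of these gave p = 0.062, the smallest that 5 libraries allow. The order was set by the means of these same libraries, so the test only describes it. The other 3 pairs were not separated: miR-871-3p and miR-741-3p (exact p = 0.31), miR-883-3p and miR-471-3p (exact p = 0.62) and miR-471-3p and miR-880-3p (exact p = 0.25). All members are of nearly the same length, 20 to 22 bases, so their CPM can be set side by side, though ligation and amplification may favour some sequences over others.

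**Figure D1:**
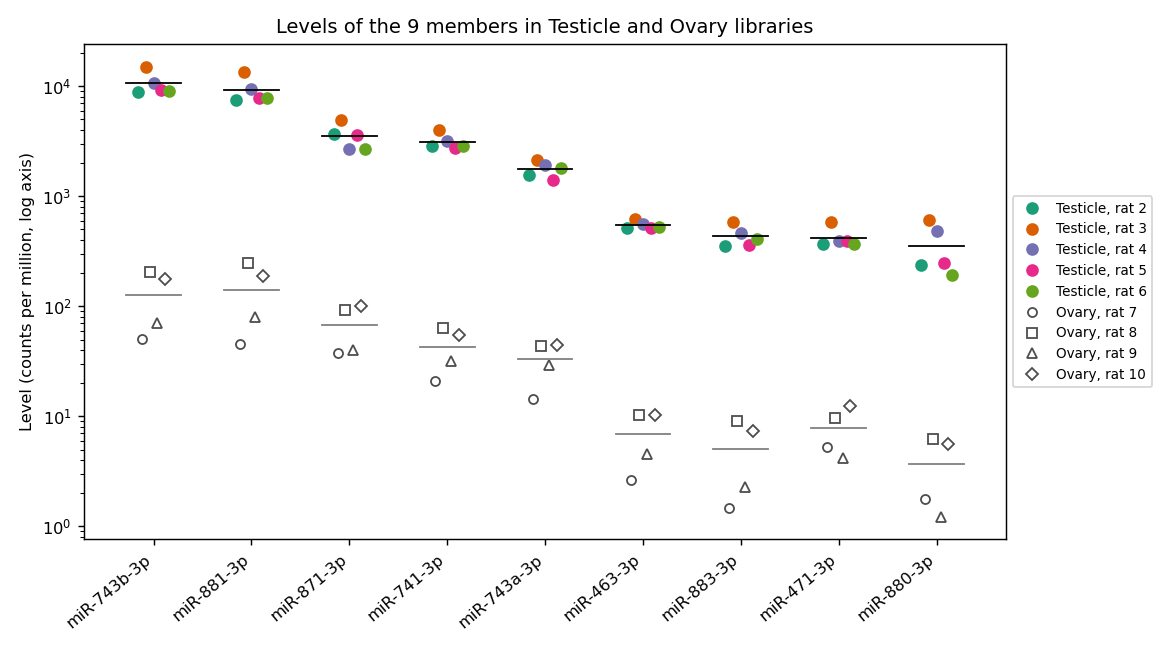
Level of each member in CPM on a log axis, in the 5 Testicle libraries (filled, by rat) and the 4 Ovary libraries (open, by rat), with horizontal lines at the means. Each member's lowest Testicle library lies at least 26.7 times above its highest Ovary library, and rat 3 is the highest Testicle library for all 9 members.

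No other tissue came near these levels. Testicle gave 0.231% of all counts of the atlas but 71929 of the 84424 counts of the members, or 85.2%, Ovary gave 8696, and the other 21 labels together gave 3799. On tissue means, which weight each label equally, Testicle held 98.3% of the summed level. Of the 209 libraries of other labels (Ovary of rat 11 left out), 80 had no count of any member and 150 had at most 3 counts over all 9.

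For each of the 9 members, every Testicle library lay above every sample of the other 22 labels, whereas this held for 7.17% of all names tested. All 9 also passed the filter on low counts, which their level in Testicle alone would let them do. In edgeR's quasi-likelihood test with Benjamini-Hochberg adjustment over all 1631 names tested, 9 of 9 members were higher in Testicle than in the mean of the other labels, against 18.9% of all names called higher. The log2 fold changes lay between 10.62 ± 0.352 (SE, miR-471-3p) and 12.39 ± 0.682 (SE, miR-743b-3p), with edgeR adjusted p from 6.18e-64 to 5.93e-40. Their size depended on the model: with the rats as a block and without DRG they were 11.93 to 14.54 (10.60 to 12.39 without the block), and with library totals 12.27 to 14.19. The median over the members was 11.55 and that over all names was -0.50, a value that moves with the scaling (-0.29 with TMM, 1.24 with library totals) by far less than the distance to the members.

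Against single labels, 198 of 198 pairs of a member and a label were called higher in Testicle by edgeR, against 18.8% of all such pairs of a name and a label (12.1% to 30.5% in single labels), and 179 by DESeq2, where all 19 calls lost had an adjusted p. The share of all pairs was not worked out for DESeq2. The fitted log2 fold changes ran from 4.32 to 17.2, but the largest ones are set against tissues with no counts and depend on the model. In counts, 33 pairs were at 0 in the other tissue, which puts Testicle at least 2728 to 230252 times above the level of 3 counts there, 61 pairs had 1 to 3 counts, and for the remaining 104 pairs the ratio of means ran from 51.96 to 142454.

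The lowest ratios were all those of Ovary, the second tissue for each of the 9 members. There the summed level was 180.2 CPM in rat 7, 688 CPM in rat 8, 264 CPM in rat 9 and 604 CPM in rat 10 (mean 434 ± 249.5, SD, n = 4), which is 1.44% of the Testicle mean, or 69.3 times lower. Rats 8 and 10 were above rats 7 and 9 for all 9 members. These 4 libraries carried 500 to 786 CPM of miR-202-5p, the gonadal marker, and 2148 to 3960 CPM of miR-34c-5p.

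In Ovary the 2 leading members changed places. miR-881-3p had 45.2, 246, 79.6 and 190.1 CPM in rats 7 to 10 (mean 140.3 ± 93.9), and miR-743b-3p had 50.5, 205, 70.4 and 178 CPM (mean 126 ± 76.8). miR-743b-3p was the higher of the pair in rat 7 alone, so the order is not settled in Ovary. Then came miR-871-3p with a mean of 68.0 ± 33.7 CPM, miR-741-3p with 43.1 ± 20.1 CPM and miR-743a-3p with 33.1 ± 14.2 CPM. The 4 members that were low in Testicle were low here too, from 7.89 ± 3.83 CPM for miR-471-3p down to 3.70 ± 2.57 CPM for miR-880-3p, which rests on 73 counts in all.

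Testicle stood above Ovary by a ratio of means between 51.96 for miR-871-3p and 95.5 for miR-880-3p. In the make-up of the cluster, miR-741-3p and miR-881-3p had nearly equal shares in the 2 gonads. miR-741-3p held 10.6% ± 0.635 of the members' counts in Testicle and 10.6% ± 1.53 in Ovary, and miR-881-3p 30.6% ± 1.22 and 30.6% ± 4.42. For 7 of the 9 members the ranges of this share overlapped. The exceptions were miR-743b-3p, with 34.0 to 36.0% in Testicle and 26.7 to 29.8% in Ovary, and miR-883-3p, with 1.37 to 1.57% and 0.820 to 1.33%. Some means stood apart although the ranges overlapped. The mean share was lower in Testicle than in Ovary for miR-871-3p (11.8% and 16.6%), miR-743a-3p (5.99% and 8.26%) and miR-471-3p (1.41% and 2.00%). It was higher in Testicle for miR-880-3p (1.13% and 0.819%) and miR-463-3p (1.86% and 1.60%).

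Ovary itself stood above the rest of the body. Against the mean of 16 labels that leave out the gonads, the 4 brain regions and DRG, 9 of 9 members were called higher by edgeR, against 11.6% of all names. DESeq2 called 5 of 9, and its share of all names was not worked out. The edgeR log2 fold changes lay between 6.42 ± 0.428 (SE, miR-880-3p) and 8.03 ± 0.445 (SE, miR-743a-3p). The 4 members that DESeq2 did not call were miR-880-3p, miR-463-3p, miR-471-3p and miR-883-3p, those with the fewest counts, with DESeq2 adjusted p from 0.0998 to 0.413. Every Ovary library lay above all samples of the other 21 labels for 0 of 9 members, where 0.307% of all names did so. Without the library labelled Hippocampus of rat 7 this held for 9 of 9, against 2.08% of all names.

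The brain regions (Brainstem, Cerebellum, Cerebrum and Hippocampus) had a mean summed level of 11.3 CPM over 40 libraries, but 1910 of the counts there belonged to the library labelled Hippocampus of rat 7 alone, at 349 CPM. This library showed the level on both flow cells, with 385 and 344 CPM. The members took similar shares in it as in Ovary, 34.97% for miR-881-3p and 26.1% for miR-743b-3p. Without it the brain mean was 2.59 CPM, inside the range of 0.0318 to 5.55 CPM spanned by the means of the labels that are neither gonad nor brain. This brain mean pools the 4 regions. The mean of Brainstem alone lay above that range, through rats 11 and 9 with 32.7 and 21.1 CPM. Its other libraries had 0.171 to 1.97 CPM, and the means of the other regions lay inside the range.

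By edgeR, 0 of 9 members were called higher in the brain regions than in the mean of the same 16 labels, and 0 reached an unadjusted p under 0.05, where 24.3% of all names were called higher and 37.9% lower. The log2 fold changes of 0.40 to 0.98 all turned negative (-1.37 to -0.19) without the library labelled Hippocampus of rat 7. miR-881-3p was then called lower (-1.37 ± 0.453, SE, edgeR adjusted p = 0.00497), 1 of 9 against 37.9% of names. With the library in place, DESeq2 called 2 higher, TMM scaling 4 and library totals 8, so the call in the brain depends on the scaling. For these alternatives the share of all names called was not worked out, so the counts cannot be set against it. Without that library the test statistic was at or near 0 for 7 of 9 members (F under 0.01) at log2 fold changes down to -1.23, so a p near 1 says little here. With it in place, F was also near 0 for miR-883-3p, at a log2 fold change of 0.50. F did not follow the fold changes: without the library it was 9.11 for miR-881-3p (-1.37) and 0.000154 for miR-871-3p (-1.23). Neither the call of miR-881-3p nor the 0 of 9 can therefore be relied on.

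**Figure D2:**
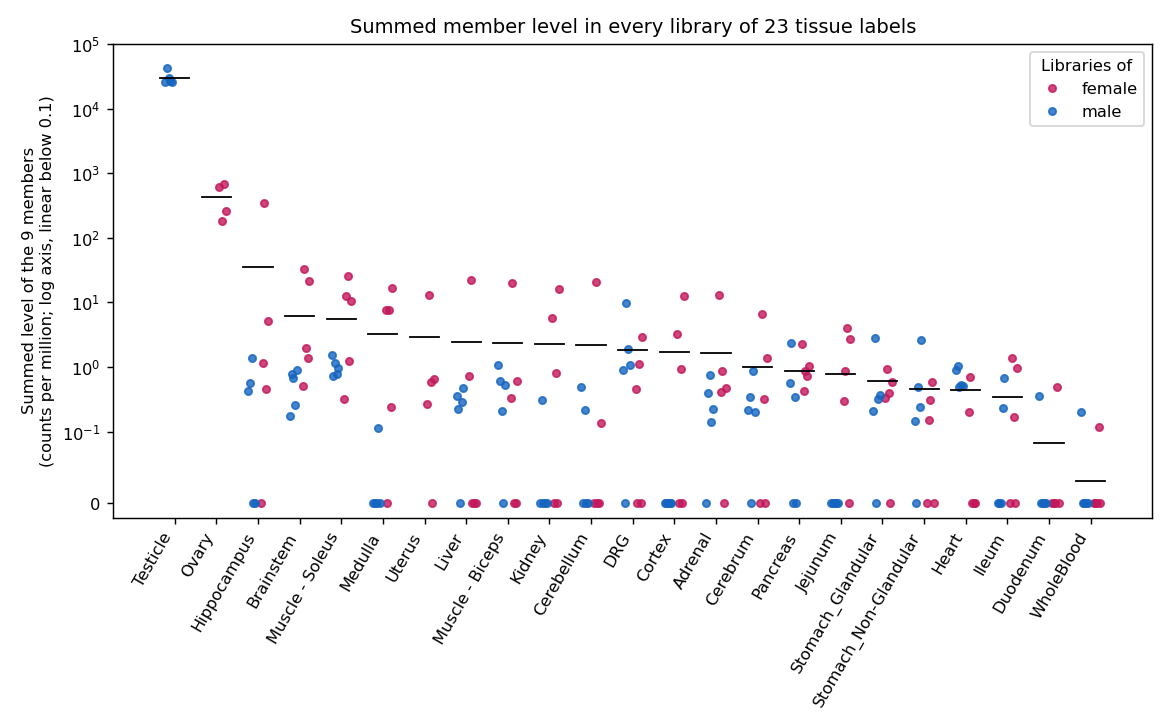
Summed level of the 9 members in every library, in CPM (log axis, linear below 0.1), for males and females under each of the 23 labels, with horizontal lines at the means. The 5 Testicle libraries lie between 25884 and 42197 CPM, the 4 Ovary libraries between 180.2 and 688 CPM, and the Hippocampus point at 349 CPM is the library of rat 7.

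Outside the gonads the traces were not spread evenly over the rats. In the 19 labels sequenced in single rats of both sexes, which leaves out the DRG pools, 0 of 95 libraries of males exceeded 3 CPM. The highest was 2.82 CPM (Stomach_Glandular of rat 3). Of the 95 libraries of females, 20 exceeded 3 CPM, and 13 exceeded 10 CPM. Without the 10 libraries that resembled another label, 12 of 91 exceeded 10 CPM, and the highest was Brainstem of rat 11 with 32.7 CPM from 156 counts. Pooled over libraries, females had 7.11 CPM and males 0.444 CPM, or 3.29 and 0.455 CPM without those libraries. Among the DRG libraries, which are not counted here, a library of the male pool had 9.90 CPM from 21 counts.

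The libraries over 10 CPM came from 4 of the 5 females. Rats 9 and 11 had 5 each. Beside Brainstem, rat 11 had 20.9 CPM in Cerebellum, 21.9 CPM in Liver, 19.97 CPM in Muscle - Biceps and 12.3 CPM in Muscle - Soleus. Rat 9 had 21.1 CPM in Brainstem, 16.9 CPM in Medulla, 15.9 CPM in Kidney, 12.7 CPM in Cortex, with 10.6 CPM in Muscle - Soleus. Rat 7 had 25.8 CPM in Muscle - Soleus, and rat 10 had 13.2 CPM in Adrenal. Rat 8, whose Ovary level was the highest, had no library over 1.38 CPM. These libraries held 7 to 9 of the 9 members and rest on 51 to 183 counts each. Their miR-202-5p lay between 0 and 0.252 CPM, apart from 5.70 CPM in Adrenal of rat 10, a tissue in which rats 11 and 7 also had 8.45 and 11.2 CPM.

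The traces were also set beside the sequencing lanes, since some lanes carried a Testicle library. Outside the gonads and without the library labelled Hippocampus of rat 7, the pooled level was 1.84 CPM in runs that shared a lane with Testicle and 1.85 CPM in runs that did not. In Ovary the corresponding values were 264 and 501 CPM. Rats 7, 8 and 10 had runs on both sides there and rat 9 only in lanes without Testicle, so that these pooled values weight the rats differently. The Testicle and Ovary levels were alike on the 2 sets of flow cells: the ratio of the runs of a library lay between 0.947 and 1.18 in Testicle and between 0.949 and 1.15 in Ovary.

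Both arms were read at each precursor, and the 3p arm was the main product of 7 of the 9. In Testicle the 3p arm took 99.9% of the counts of both arms at miR-741, 99.7% at miR-880 and 99.2% at miR-881. It took 92.9% ± 0.480 at miR-743b, 86.4% ± 1.77 at miR-883, 82.9% ± 1.91 at miR-743a and 71.5% ± 5.64 at miR-871. At miR-471 both arms were about equal, with 51.6% ± 3.64 for 3p. At miR-463 the order was turned round, with 13.1% ± 0.454 for 3p, and miR-463-5p reached 3646 ± 313 CPM (SD, n = 5), while miR-463-3p, the member counted here, had 548.

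The arm shares in Ovary lay close to these. miR-463 again gave mostly its 5p arm (10.1% ± 4.44 for 3p), and miR-471 stood at 45.3% ± 7.51. The ranges of Testicle and Ovary did not overlap for miR-743b, with 92.2 to 93.6% in Testicle and 84.7 to 89.8% in Ovary, or for miR-743a, with 81.0 to 85.7% and 86.6 to 94.97%. Between the near twins the difference of the gonads thus had opposite signs. Arm shares were worked out for these precursors alone, so no share over all precursors stands beside this. A composite entry for miR-743a-5p and miR-871-5p, 51.4 ± 32.8 CPM in Testicle, is in neither share, so the 5p arms of both are somewhat understated. Of 10 entries for 5p arms, 8 were tested, and all 8 were called higher in Testicle and in Ovary by edgeR (18.9% and 11.6% of all names).

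**Figure D3:**
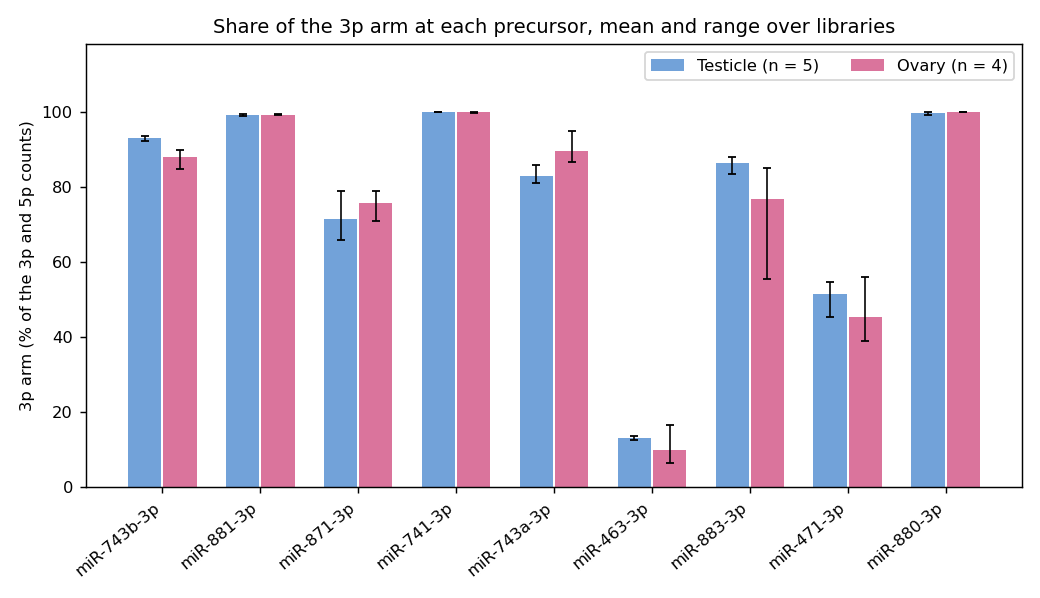
Counts of the 3p arm as a percentage of the counts of both arms at each of the 9 precursors, in Testicle (n = 5) and Ovary (n = 4). Bars are means and error bars run from the lowest to the highest library. miR-463 stands out with 13.1% in Testicle and 10.1% in Ovary.

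Each member was read in several forms, called isomiRs, that differ at their ends. In 1 lane the reads carried an extra first base: 51.03% of the members' reads in the Testicle run of rat 5 there (5374 of 10532), against 0.0847% in the other 9 Testicle runs. In the same lane it was found in 64.3% of the reads of miR-26a-5p in the Testicle run, 64.4% in a Brainstem run and 64.1% in a Cerebrum run, against 0.0294% in all other lanes. It was thus found across tissues and miRNAs of that lane, and the shares below leave the lane out. Rat 5 is then represented by its other run, with 2263 reads of the members.

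The 5′ end matters because it moves the seed. In Testicle, 31.0% ± 0.602 of the reads of miR-743b-3p started 1 base later than annotated, and in Ovary 31.7% ± 3.14. The share was 13.2% ± 0.590 and 12.2% ± 2.53 for miR-881-3p, and 9.96% ± 0.717 and 13.1% ± 1.66 for miR-743a-3p. miR-871-3p and miR-880-3p had almost none of it, 0.0107% and 0.237% in Testicle. The leading forms of the 2 most abundant members are shown with bases 2 to 8 of each read in capitals, in the DNA letters of the deposited table.
miR-743b-3p, most counted: gAAAGACAccatactgaataga
miR-743b-3p, next: aAAGACACcatactgaataga
miR-881-3p, most counted: tAACTGTGgcatttctgaataga
miR-881-3p, next: aACTGTGGcatttctgaataga

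The later start of miR-743b-3p gives bases 2 to 8 that no annotated member has, and this single form made up 25.3% ± 0.457 of its reads in Testicle and 24% ± 3.63 in Ovary. For miR-881-3p the most counted form was 1 base longer at the 3′ end than the annotated sequence, with 58.3% ± 1.32 of the reads, and the form with the later start shown above made up 9.08% ± 0.454. For both of these members the share with the later start differed between the gonads by less than the spread between libraries. For 2 others the ranges did not overlap: miR-741-3p had 6.13% ± 0.80 in Testicle (4.92 to 6.84%) and 10.6% ± 2.30 in Ovary (8.74 to 13.9%), and miR-743a-3p had 9.27 to 11.01% and 11.2 to 14.8%. For miR-883-3p the share was 10.4% ± 6.64 in Testicle and 22% ± 6.32 in Ovary with overlapping ranges, on 103 reads in Ovary. How often the starts of other miRNAs differ between the gonads was not tested.

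The 3′ ends differed more between Testicle and Ovary. Reads 2 bases short of the annotated end made up 24.2% ± 1.76 of miR-463-3p in Testicle and 2.85% ± 3.32 in Ovary. For miR-883-3p these were 26.3% ± 3.34 and 4.43% ± 5.34, and for miR-871-3p 10.9% ± 1.19 and 1.54% ± 0.469. miR-881-3p had 9.46% ± 0.673 and 4.23% ± 1.67, and miR-741-3p 3.66% ± 0.797 and 0.444% ± 0.317. In these 5 members the lowest Testicle library lay above the highest Ovary library. Ends were placed for the members alone, so no share of all names with such a difference can be given. Whether other miRNAs of these libraries differ likewise was not tested. The Ovary values of miR-463-3p and miR-883-3p rest on 138 and 103 reads.

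For miR-883-3p the short form was its second form in Testicle, and for miR-871-3p the shift went along with less of the form that is 1 base longer than annotated. The leading forms of both are shown, which for miR-883-3p include the form 2 bases short, and for miR-871-3p are the longer form and the annotated one.
miR-883-3p, most counted: tAACTGCAacatctctcagtatt
miR-883-3p, next: tAACTGCAacatctctcagt
miR-871-3p, most counted: tGACTGGCaccatactggataat
miR-871-3p, next: tGACTGGCaccatactggataa
The longer form of miR-871-3p made up 58.6% ± 0.934 of its reads in Testicle and 75.8% ± 3.60 in Ovary, with no overlap between the libraries of the gonads (57.0 to 59.3% and 72.6 to 79.0%).

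**Figure D4:**
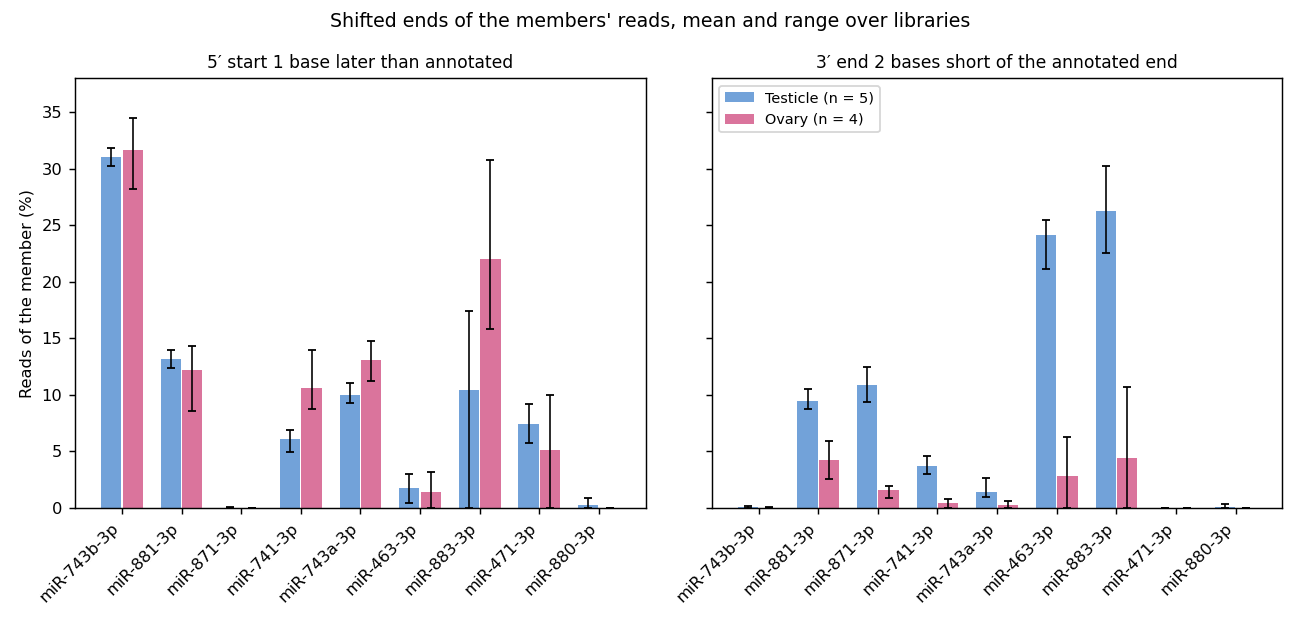
Share of each member's reads, in percent, that start 1 base later than annotated (left) and that end 2 bases short of the annotated 3′ end (right), in Testicle (n = 5) and Ovary (n = 4), without the lane with extra first bases. Bars are means and error bars run from the lowest to the highest library, and the right panel shows miR-463-3p at 24.2% in Testicle and 2.85% in Ovary.

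Other X-linked miRNAs of the rodent testis were compared from a list of 11 names, of which 7 had an entry in the table (miR-878, miR-465, miR-470, miR-742, miR-547, miR-201 and miR-509) with 12 entries in all. In Testicle 11 of these 12 had counts, and all 11 were tested and called higher by edgeR in Testicle and in Ovary (18.9% and 11.6% of all names). miR-201-5p was the most abundant with 7632 ± 1022 CPM in Testicle and 154 ± 81.4 CPM in Ovary. Its Testicle level lay between those of miR-881-3p and miR-871-3p, while its Ovary mean was above that of each member. miR-201-3p had 618 ± 158 and 18.5 ± 5.37 CPM, and miR-547-3p 591 ± 111 and 14.6 ± 2.46 CPM. miR-470-5p had no count in either gonad.

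In the brain, 3 of the 11 were called lower (37.9% of all names), with and without the library labelled Hippocampus of rat 7. These were miR-547-5p, miR-201-5p and miR-201-3p, with log2 fold changes of -1.93 ± 0.339, -2.10 ± 0.257 and -1.497 ± 0.310 (SE) with it. Of the 8 tested 5p arms of the members, 2 were called higher in the brain with that library, close to the 24.3% of all names. These were miR-463-5p and miR-471-5p (edgeR adjusted p = 0.0261 and 0.000453). Without it 0 of 8 were called, against 24.2% of all names, and edgeR gave these 2 arms adjusted p of 0.618 and 0.0703. The limit of the brain contrast given above, an F that did not follow the fold changes, holds for these calls too.

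Inside the stretch of the members RefSeq also places miR-742, miR-878 and miR-3551. miR-742-5p and miR-742-3p had 100.1 ± 11.8 and 68.7 ± 22.2 CPM in Testicle, the entry of miR-878 had 292 ± 34.7 CPM, and miR-3551-5p had 13.3 ± 0.98 CPM. In Ovary they stood at 1.496, 1.23, 3.90 and 0.154 CPM. miR-3551-3p, at 2.77 CPM in Testicle, was too low to test. miR-3580, whose gene is the first miRNA gene beyond that of miR-871, gave 453 ± 127 CPM of its 3p arm. miR-3551 and miR-3580 were added for their position once values had been seen. Their 3 tested entries were called higher in Testicle and in Ovary by edgeR (18.9% and 11.6% of all names). As they were chosen with these values known, the calls only describe them.

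Over the means of the 23 labels (log2 of CPM plus 1), each member's profile followed the mean of the other 8 with a Pearson r of 0.985 to 0.999, a description over 23 points that rests largely on the gonads. Among 458 names with at least 10 CPM in Testicle and outside the lists above, the nearest profile was that of a predicted entry on chromosome X that is joined with the precursor of miR-878 (r = 0.996, 554 ± 131 CPM in Testicle). The gonadal miR-202-3p came next (r = 0.992, 42.0 ± 19.04 CPM), followed by an entry that joins a predicted miRNA with miR-449b-5p (r = 0.987), miR-449c-5p (r = 0.956) and miR-449a-5p (r = 0.949, 14909 ± 2968 CPM), of the miR-34 and miR-449 family.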

How the data were processed

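Small RNA libraries of 23 tissue labels (TruSeq small RNA, single-end reads) were used as deposited. The authors trimmed adaptors with cutadapt 1.4.1, dropped short reads and reads with undetermined bases, assigned reads to miRBase names with miRDeep2, and deposited raw counts per miRNA name and per isomiR sequence for each of 458 runs, without normalization. To predict further miRNAs, the authors aligned the reads to the RN5 rat genome. No coordinates of that build are given here. Outside DRG each library of a label came from a separate rat.

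Here, 444 runs were summed to 215 libraries, and 14 runs that repeat a flow cell lane were set aside. DRG libraries were summed to 2 pools for the fits. CPM is a count over the library total, which was between 376401 and 17725805, and limits of 3 counts cover the counting error alone, because no molecular identifiers were used and amplified reads are not separate molecules. edgeR 4.0.16 in R 4.3.3 was fitted to 206 samples with 1 coefficient per label (a quasi-likelihood test with libraries scaled by their upper quartile, low counts removed by filterByExpr, and Benjamini-Hochberg adjustment over 1631 names at 0.05), with contrasts of Testicle against the mean of the other 22 labels and against each, and of Ovary and of the 4 brain regions against the mean of 16 labels. DESeq2 1.42.0, other scalings, no filter, left-out libraries, single flow cells, and lanes without Testicle were alternatives. In shallow libraries the upper quartile is a few counts, which makes this scaling coarse. Each SE beside an edgeR log2 fold change was worked out from the test, as the absolute fold change over the square root of F. It is an approximation, and of no use where F is near 0. On simulated counts with 200 changed names of the Testicle contrast (log2 change of 2, 1631 names), edgeR recovered 40.5% of the changed names, and 42 of 42 of those with at least 10 expected counts per library, while 4 of 879 unchanged names were called. For Ovary these were 57.5%, 76 of 78 and 3 of 948, and for the brain 74.5%, 93 of 93 and 12 of 915. The split by expected count was added, and set as the condition for passing, once the low overall share was seen. In the simulation all labels shared 1 mean profile and a dispersion of 0.2. The filter passed 1009 names for Testicle, 1077 for Ovary and 1064 for the brain. Changes as large as those of the members, beside labels with no counts, were not simulated. The recovery therefore does not speak for the members or for their brain contrast.

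The same rats gave the tissues, so same-numbered samples are paired by animal. After removal of label means, different tissues of a rat had a median correlation of 0.0149 (1980 pairs), against -0.0057 (17845 pairs) between rats, and the rat was entered as a block in an alternative.

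IsomiR ends were placed against the RefSeq mature sequence. Gene positions and sequences are from RefSeq (GRCr8). Python 3.11.15, pandas 2.3.3, scipy 1.17.1 and matplotlib 3.10.9 were used otherwise. The names given are the 9 members, the 5p arms of their precursors, a list of 11 related X-linked miRNAs, the 5 nearest profiles and the leading isomiRs, plus miR-3551 and miR-3580, chosen after their values were seen. The members, the lists, the markers and the tests were chosen with earlier results of these data known.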

Additional observations from a re-analysis of the deposited data

Results flagged for a closer look

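Dixon's test was applied to the summed level of the members in 22 groups of 4 to 10 libraries and to single members in Testicle and Ovary, 40 groups in all, and it marked 15 values as far from the rest of their group. Chance alone marks about 1 in 20 groups where values are normally distributed and groups are independent. Most levels outside the gonads rest on a few counts and are skewed, and groups share libraries. That rate therefore cannot be set against the number marked here. In Testicle the summed level of 42197 CPM in rat 3 was marked, with 29959 CPM as the next, and so was miR-471-3p at 579 CPM in the same rat, with 396 CPM as the next. The library labelled Hippocampus of rat 7 was marked at 349 CPM, with 5.07 CPM as the next.

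The other marked values were traces in single libraries of females, except for 2 in males. Rat 11 was marked for Liver (21.9 CPM, next 0.733), Cerebellum (20.9 CPM, next 0.484), Muscle - Biceps (19.97 CPM, next 1.07), Uterus (13.0 CPM, next 0.655) and Cerebrum (6.51 CPM, next 1.39). Rat 9 was marked for Medulla (16.9 CPM, next 7.49), Kidney (15.9 CPM, next 5.65) and Cortex (12.7 CPM, next 3.21). Rat 7 was marked for Muscle - Soleus (25.8 CPM, next 12.3) and rat 10 for Adrenal (13.2 CPM, next 0.865). The males were rat 3 for Stomach_Glandular (2.82 CPM, next 0.942) and rat 6 for Stomach_Non-Glandular (2.64 CPM, next 0.586). Of the 209 libraries outside Testicle, 150 had at most 3 counts over the 9 members.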

How the results depend on the processing

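In Testicle 9 of 9 members were called against the mean of the other labels under each alternative run. Against single labels 198 of 198 pairs were called, with 179 under DESeq2 and 189 of 189 when DRG was dropped, both with rats as a block and with no block. The block raised the Testicle log2 fold changes to 11.93 to 14.54, from 10.60 to 12.39 with no block on the same samples, and library totals gave 12.27 to 14.19. It changed no call of a member in Testicle or Ovary, and 0 of 9 were called in the brain with it. In Ovary 9 of 9 were called under each alternative except DESeq2 (5). In the brain 0 were called, but 2 under DESeq2, 4 with TMM, 8 with library totals and 1 on the flow cell that holds every library. The share of all names called was not worked out for these. Leaving out each Testicle library gave 9 and 198 again, a share of 2.71 to 3.11% of Testicle counts, and 7 to 9 members at their place in the order (7 without rat 4, and 7 on the flow cell that holds every library). Leaving out each Ovary library gave 9 again and a summed level of 349 to 519 CPM, and keeping Ovary of rat 11 gave 347 CPM.

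Brain fold changes (log2) turned negative without the library labelled Hippocampus of rat 7, an alternative chosen after seeing the data, and also without all 10 libraries that resembled another label. In this order, they were -0.95 and -0.95 for miR-741-3p, -1.37 and -1.44 for miR-881-3p, -0.65 and -0.65 for miR-743a-3p, -0.68 and -0.73 for miR-743b-3p, -1.23 and -1.24 for miR-871-3p, -0.19 and -0.20 for miR-880-3p, -0.65 and -0.65 for miR-463-3p, -0.40 and -0.41 for miR-471-3p, and -0.62 and -0.62 for miR-883-3p. They also turned for miR-881-3p with the block (-0.053), for miR-880-3p under DESeq2 (-0.039) and for miR-883-3p in lanes without Testicle (-0.062), and there the cause was not tested. The brain mean was 2.59 CPM without that library and 2.72 CPM without all 10.

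With the lane of extra first bases kept, an alternative added after seeing the data, the share of Testicle reads at the annotated start was lower for all 9 members, at 60.5% for miR-743b-3p and 76.9% to 92.2% for the others. The depth of 376401 to 653651 counts limits the Testicle values, and in most other libraries the members are at or under 3 counts, so a lower level could not be detected there.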

Other observations

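The DRG libraries give a view of how even a trace is within 1 pool of RNA. Of the 5 technical libraries of the male pool, 1 had 9.90 CPM of the members from 21 counts, and the other 4 had between 0 and 1.89 CPM from 0 to 4 counts. The 5 libraries of the female pool had between 0 and 2.89 CPM, from 0 to 8 counts.

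In most of the female libraries with traces, miR-34c-5p was far above the members. Their summed level was 2.76% of that of miR-34c-5p in Brainstem of rat 11 and 26.9% in Liver of the same rat, and 169% in Muscle - Soleus of rat 7, the only one of these libraries with more of the members (25.8 CPM) than of miR-34c-5p (15.3 CPM). In Ovary this percentage was 4.55% to 32.0%.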
